A study of Mus musculus with 9 samples.

Results

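The genes described here encode the voltage-gated potassium channels, and their subunits, that return the heart cell to its resting potential after each beat. The 10 members were listed by name: Kcnd2, Kcnd3, Kcnip2, Kcnv2, Kcna4, Kcna5, Kcnh2, Kcnq1, Kcne1 and Kcnab1. All 10 were found among the 19935 genes of the table, and each had exactly 1 probe set with a single gene symbol. Adult mice on a mixed background of C57BL/6 were used, and RNA of their right ventricle together with the septum between the ventricles was read on Affymetrix arrays, 1 per sample. The 4 Ezh2-deficient mice were labelled Ezh2f/f;Mef2cAHF::Cre: both Ezh2 alleles are floxed, and Cre recombinase is under an enhancer of Mef2c that marks the anterior heart field and is active in embryonic progenitors of the right ventricle, septum and outflow tract. The 5 wild-type mice were labelled Ezh2f/f and carried floxed alleles without Cre, although their titles read f/wt, so the number of floxed alleles in these mice is not settled by the labels. An effect of the Cre transgene and loss of Ezh2 cannot be told apart, because Cre was present in all Ezh2-deficient and in no wild-type hearts. Cells that never expressed Cre, blood cells among them, are part of the dissected tissue and keep Ezh2.

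A voltage-gated potassium channel is a ring of pore-forming alpha subunits, to which auxiliary subunits bind and set how many channels reach the membrane and how fast they open and close. In the mouse ventricle the fast transient outward current, carried by Kv4 subunits with KChIP2, is a main repolarising current. A slow transient outward current comes from Kv1.4 and is best known from the septum, and a delayed rectifier current comes from Kv1.5. The rapid and slow delayed rectifiers, ERG and Kv7.1 with MinK, dominate in larger mammals and are small in the adult mouse ventricle.

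All values below are log2 expression values as deposited, and each difference is the Ezh2-deficient mean less the wild-type mean on that scale. Array medians lay between 7.19 and 7.25. Each title has the letter e or x, with no meaning given in the labels. It was treated as a possible batch: the letter e marks 2 Ezh2-deficient and 2 wild-type arrays, and the letter x marks 2 and 3. The Ezh2 probe set averaged 8.88 ± 0.11 in Ezh2-deficient hearts (SD, n = 4) and 8.73 ± 0.12 in wild-type hearts (SD, n = 5), with a difference of 0.15 (SE 0.07, limma adjusted p = 0.485). Where in the transcript its probes lie is not given in the sources used here, so this value does not check the labels. Ezh2-deficient array 3 stood apart in blood markers. The mean over 5 erythrocyte genes was 8.99 there, against 7.68 to 7.75 in the other Ezh2-deficient arrays and 7.36 to 7.95 in wild-type arrays. Mean levels of 3 Y-linked genes were 4.84 and 5.51 in Ezh2-deficient arrays 1 and 3 and 5.47 in wild-type array 4, against 8.64 to 9.38 in the other arrays. Low levels of Y-linked genes are those of female tissue, so by these values the sexes were not evenly divided between the genotypes.

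In Ezh2-deficient hearts 8 of the 10 genes had a lower mean and 2 a higher one. The median difference was -0.14, against -0.0034 over all genes, of which 51.6% had a lower mean. By limma, adjusted over all 28815 probe sets, 0 of the 10 passed the threshold of 0.05 (adjusted p 0.129 to 0.949), where 0.0347% of all probe sets passed. At an unadjusted p under 0.05 there were 6 of the 10: Kcnd2, Kcnd3, Kcnip2, Kcnv2 and Kcnh2 lower and Kcne1 higher, against 5.45% of all probe sets lower and 5.23% higher (5.78% and 5.77% of the genes). The groups did not overlap for Kcnd2, Kcnd3, Kcnip2 and Kcnv2, all lower in Ezh2-deficient hearts, against 1.91% of all probe sets without overlap and lower, and 3.71% without overlap in either direction. These genes were listed with earlier results of the same arrays known, so the counts describe the list and are not a test of it. In whole tissue, fewer cells of a type and less RNA per cell cannot be told apart.

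**Figure D1:**
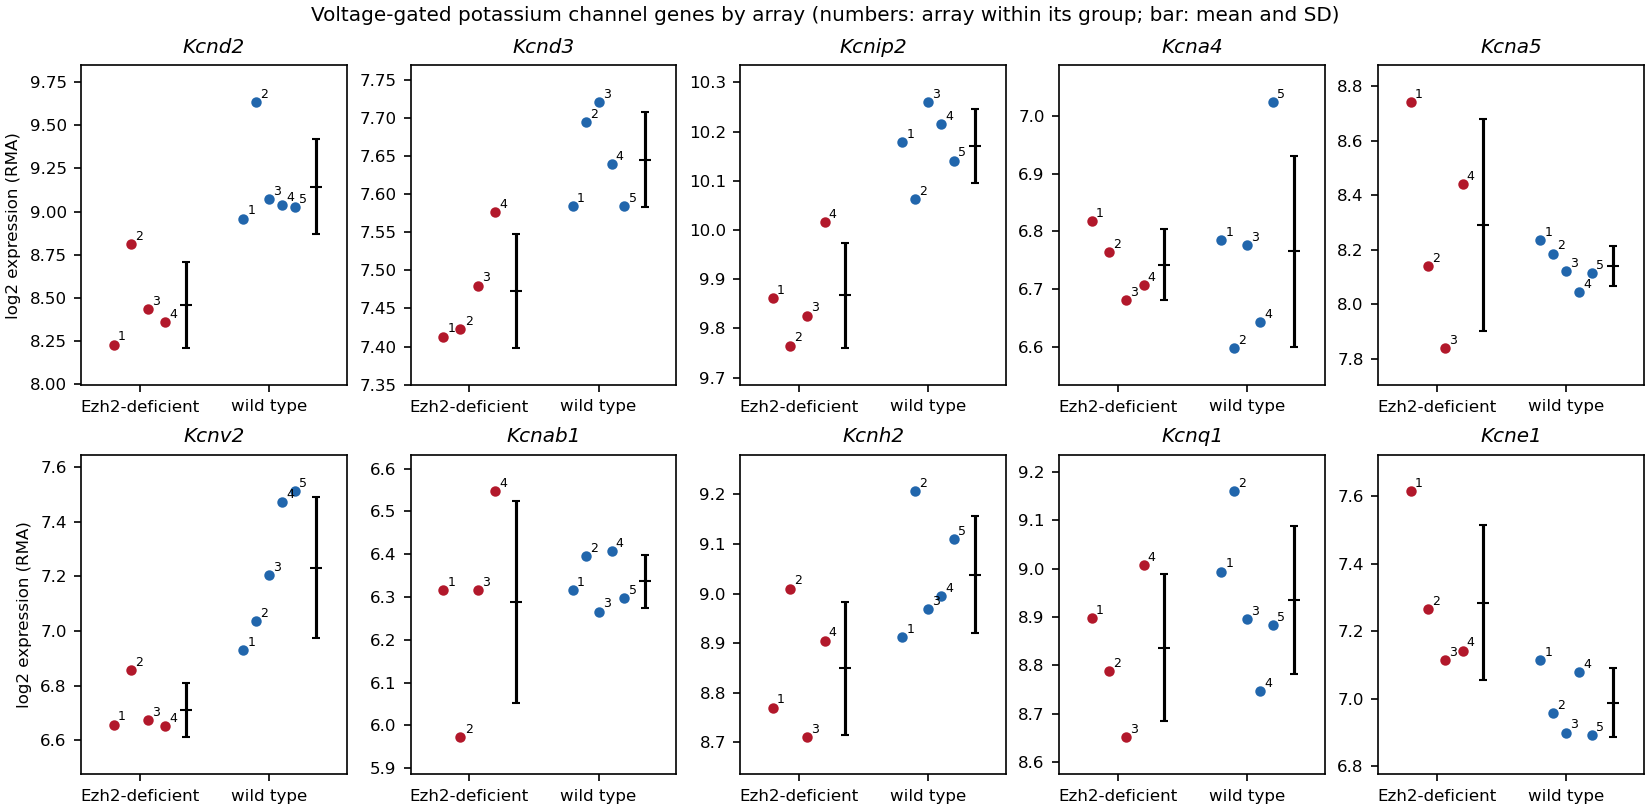
Log2 expression of each of the 10 genes on the 4 Ezh2-deficient arrays (red, left) and the 5 wild-type arrays (blue, right), with a panel and a vertical scale for each gene; the numbers name the array within its group, and the bars give the mean and SD. The groups did not overlap for Kcnd2, Kcnd3, Kcnip2 and Kcnv2, and the Ezh2-deficient arrays spread to both sides of the wild-type arrays for Kcna5 and Kcnab1.

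Among these genes the widest gap between genotypes was that of Kcnd2, which encodes Kv4.2, a pore subunit of the fast transient outward channel. Kcnd2 read 8.23, 8.81, 8.44 and 8.36 in Ezh2-deficient arrays 1 to 4, against 8.96, 9.63, 9.07, 9.04 and 9.03 in wild-type arrays 1 to 5. Every Ezh2-deficient heart lay below every wild-type heart, and the highest value was that of wild-type array 2. The difference was -0.69 (SE 0.15, 95% interval -1.03 to -0.34, limma adjusted p = 0.157), a level 37.9% below wild type. Of the 19935 genes 21, Kcnd2 included, had a difference at least that far below 0. An exact two-sided permutation test of Kcnd2 alone gave p = 0.00794, the smallest that the 126 assignments of the arrays to the groups can give. Kcnd3 and Kcnip2 reached the same exact p. The genes were listed with earlier results of these arrays known, so this p is no independent evidence. For Kcnd2 the e arrays alone gave a difference of -1.003 and the x arrays alone -0.42. It ran from -0.80 to -0.56 over the 9 fits that each leave out 1 array, and it was -0.63 with the Y-linked mean as a covariate.

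Kcnd3, which encodes Kv4.3, the other ventricular pore subunit of that channel, showed a smaller gap. It read 7.41, 7.42, 7.48 and 7.58 in Ezh2-deficient arrays 1 to 4, against 7.59, 7.70, 7.72, 7.64 and 7.59 in wild-type arrays 1 to 5. The groups came close, with Ezh2-deficient array 4 just below wild-type arrays 1 and 5. The difference was -0.17 (SE 0.05, limma adjusted p = 0.279), and the e arrays alone gave -0.145, the x arrays -0.197.

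Kcnip2 encodes KChIP2, the calcium-binding protein that assembles with Kv4 subunits in the cytosol and that the mouse ventricle needs for this current. Kcnip2 read 9.86, 9.77, 9.83 and 10.02 in Ezh2-deficient arrays 1 to 4, against 10.18, 10.06, 10.26, 10.22 and 10.14 in wild-type arrays 1 to 5. The groups did not overlap, and the SD was 0.11 in Ezh2-deficient and 0.07 in wild-type hearts. The difference was -0.30 (SE 0.06, 95% interval -0.44 to -0.17), a level 19.0% below wild type, and its limma adjusted p = 0.129 was the lowest of the 10. The e arrays alone gave -0.18 and the x arrays -0.41, so that Kcnip2 had its smaller gap under the letter where Kcnd2 had its larger one. Within a genotype Kcnd2 and Kcnip2 did not run in parallel. Ezh2-deficient array 2 had the highest Kcnd2 and the lowest Kcnip2 of its group, and so did wild-type array 2 among the wild-type arrays.

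The sequence before the start site is shown for the 3 subunit genes of this channel, which all read lower, and for Kcna5, which held few CG dinucleotides and whose mean was not lower. The 4 were picked after these values were seen. The sequences are the 250 bases before the annotated start, from RefSeq on build GRCm38.p6, in lower case with each CG in capitals:
Kcnd2 (chr6:21215096-21215345, plus strand): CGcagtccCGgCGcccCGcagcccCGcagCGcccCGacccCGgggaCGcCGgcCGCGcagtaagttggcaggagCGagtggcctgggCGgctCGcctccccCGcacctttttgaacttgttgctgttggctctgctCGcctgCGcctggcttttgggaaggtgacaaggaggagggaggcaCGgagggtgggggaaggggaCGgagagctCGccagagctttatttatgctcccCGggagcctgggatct
Kcnd3 (chr3:105451640-105451889, plus strand): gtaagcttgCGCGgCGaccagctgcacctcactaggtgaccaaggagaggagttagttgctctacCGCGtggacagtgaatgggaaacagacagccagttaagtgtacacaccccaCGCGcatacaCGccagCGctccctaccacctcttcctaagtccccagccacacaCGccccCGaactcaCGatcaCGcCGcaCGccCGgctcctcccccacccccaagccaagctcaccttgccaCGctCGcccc
Kcnip2 (chr19:45816064-45816313, minus strand): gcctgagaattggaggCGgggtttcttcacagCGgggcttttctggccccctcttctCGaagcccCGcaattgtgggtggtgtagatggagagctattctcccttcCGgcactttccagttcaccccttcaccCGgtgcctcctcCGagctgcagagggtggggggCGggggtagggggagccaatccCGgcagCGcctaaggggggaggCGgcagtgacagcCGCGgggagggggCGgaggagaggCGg
Kcna5 (chr6:126535556-126535805, minus strand): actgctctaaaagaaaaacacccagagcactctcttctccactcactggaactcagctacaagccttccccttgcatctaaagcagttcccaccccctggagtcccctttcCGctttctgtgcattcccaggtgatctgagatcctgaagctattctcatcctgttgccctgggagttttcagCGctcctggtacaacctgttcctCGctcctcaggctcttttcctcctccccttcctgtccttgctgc
The window held 22 CG in Kcnd2, 18 in Kcnd3, 15 in Kcnip2 and 3 in Kcna5, against a median of 6 over 32851 windows of the same length before all starts in the table. At least as many CG were found in 14.8% of those windows for Kcnd2, 21.7% for Kcnd3, 27.3% for Kcnip2 and 71.0% for Kcna5. Starts were listed for 7 of the 10 genes. Kcna4, with a difference near 0 (-0.02), held 14 CG, 1 fewer than Kcnip2. Kcnh2 also held 14, and the 3 starts of Kcnab1 held 6, 2 and 1. Kcnv2, Kcnq1 and Kcne1 had no entry. The letters TATAAA, searched on both strands, were in 0 of the 9 windows of these genes and in 12.4% of all windows. The arrays do not measure binding or methylation at these starts, and a count of letters is a description.

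Kcna4 encodes Kv1.4, the pore subunit of the slow transient outward current. Kcna4 read 6.82, 6.76, 6.68 and 6.71 in Ezh2-deficient arrays 1 to 4, against 6.79, 6.60, 6.78, 6.64 and 7.02 in wild-type arrays 1 to 5. The Ezh2-deficient hearts lay inside the wild-type range, and all values were below the median of their array, where the table gives no detection call. The difference was -0.02 (SE 0.08, 95% interval -0.21 to 0.16, limma adjusted p = 0.949). Its sign was not stable: e arrays gave 0.07 and x arrays -0.09.

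Whether the genotype difference was the same for paired channel genes was tested on the log2 difference between both genes on each array. Kcnd2 minus Kcnd3 was 0.82, 1.39, 0.96 and 0.78 in Ezh2-deficient arrays 1 to 4, against 1.374, 1.939, 1.35, 1.396 and 1.44 in wild-type arrays 1 to 5. All Ezh2-deficient arrays but array 2 lay below all wild-type arrays. The means differed by -0.52 (exact two-sided permutation p = 0.0238, adjusted p = 0.0317 over the 3 pairs tested). Kcnd2 minus Kcna4 averaged 1.72 ± 0.26 in Ezh2-deficient hearts (SD, n = 4) and 2.38 ± 0.39 in wild-type hearts (SD, n = 5), a difference of -0.66 (exact permutation p = 0.0238, adjusted p = 0.0317). Both pairs set Kcnd2, which had the largest difference of the 10 genes, against a gene with a smaller one, and they were chosen with earlier results known, so these p-values are no independent evidence. Kcna4 was below every array median, and Kcnd3 averaged 7.47 in Ezh2-deficient and 7.65 in wild-type hearts, against array medians of 7.19 to 7.25. Kcnd2 read higher, at 8.23 to 9.63. Whether a low signal narrowed the genotype differences of Kcna4 and Kcnd3 was not tested. Leaving out any single array ended the call of each of the 3 pairs, with adjusted exact p of 0.0536 to 0.0893. Among e arrays alone Kcnd2 minus Kcnd3 differed by -0.86 and among x arrays by -0.22. For Kcnd2 minus Kcna4 the e arrays gave -1.07 and the x arrays -0.33.

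**Figure D2:**
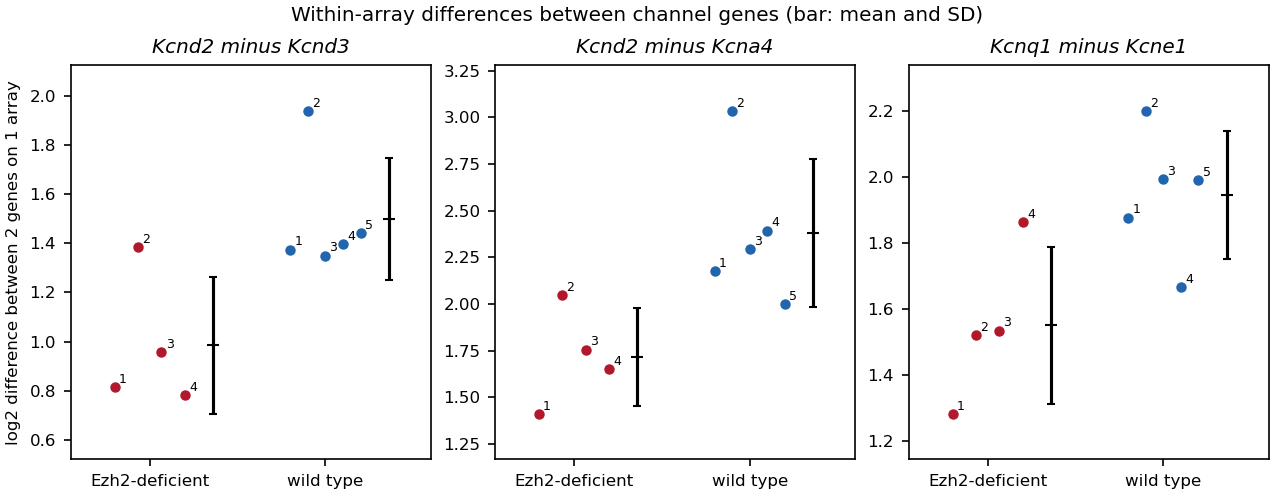
Log2 difference between a pair of channel genes on each array, for the 4 Ezh2-deficient (red, left) and 5 wild-type arrays (blue, right), with the mean and SD beside the points. Kcnd2 minus Kcnd3 ran from 0.78 to 1.39 in Ezh2-deficient and from 1.35 to 1.94 in wild-type hearts, and 1 Ezh2-deficient array overlapped the wild-type arrays in each panel.

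Kcnv2 encodes Kv8.2, a modulatory alpha subunit that forms no channel alone and assembles with other alpha subunits. Kcnv2 read 6.66, 6.86, 6.67 and 6.65 in Ezh2-deficient arrays 1 to 4, against 6.93, 7.04, 7.20, 7.47 and 7.51 in wild-type arrays 1 to 5. The groups did not overlap, and the wild-type hearts were spread more widely, with an SD of 0.26 against 0.10 in Ezh2-deficient hearts. Kcnv2 was below the array median on all Ezh2-deficient arrays and on wild-type arrays 1, 2 and 3. The difference was -0.52 (SE 0.12, 95% interval -0.79 to -0.25, limma adjusted p = 0.177), a level 30.3% below wild type. Among e arrays it was -0.33 and among x arrays -0.63. Wild-type arrays 4 and 5, with the highest Kcnv2 values, had the lowest means over 15 endothelial markers (10.18 and 9.93), against 10.40 to 10.50 in Ezh2-deficient arrays and 10.28 to 10.45 in the other wild-type arrays. Those 2 arrays were the highest in Kcnv2, so leaving them out had to narrow the gap. Without them the Kcnv2 difference was -0.35 (limma unadjusted p = 0.00299, adjusted p = 0.424, with fewer arrays). The part of endothelial cells in the Kcnv2 values was not tested.

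Kcna5 encodes Kv1.5, the pore subunit of a rapidly activating sustained current. Kcna5 read 8.74, 8.14, 7.84 and 8.44 in Ezh2-deficient arrays 1 to 4, against 8.24, 8.19, 8.12, 8.04 and 8.11 in wild-type arrays 1 to 5. Both the highest and the lowest of the 9 values came from Ezh2-deficient hearts, whose SD was 0.39 against 0.07 in wild-type hearts; this difference in spread was not tested. The means differed by 0.15 (SE 0.15, 95% interval -0.19 to 0.49, limma adjusted p = 0.756). Among e arrays it was 0.38 and among x arrays -0.10. It was 0 without Ezh2-deficient array 1 and 0.30 without Ezh2-deficient array 3, the array with high blood markers.

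Kcnab1 encodes the cytosolic beta subunit Kv beta 1, which binds Kv1 channels and speeds their inactivation. Kcnab1 read 6.32, 5.97, 6.32 and 6.55 in Ezh2-deficient arrays 1 to 4, against 6.32, 6.40, 6.27, 6.41 and 6.30 in wild-type arrays 1 to 5. Values were below every array median, and Ezh2-deficient arrays 2 and 4 held the lowest and the highest of the 9. The difference was -0.05 (SE 0.10, 95% interval -0.27 to 0.17, limma adjusted p = 0.893), and it was 0.08 among e arrays but -0.18 among x arrays.

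Kcnh2 encodes the ERG channel of the rapid delayed rectifier. Kcnh2 read 8.77, 9.01, 8.71 and 8.91 in Ezh2-deficient arrays 1 to 4, against 8.91, 9.21, 8.97, 8.99 and 9.11 in wild-type arrays 1 to 5. The groups overlapped through Ezh2-deficient array 2, and array 2 was the highest in either genotype, as it was for Kcnd2. The difference was -0.19 (SE 0.08, 95% interval -0.36 to -0.01, limma adjusted p = 0.428), and the exact permutation test gave p = 0.0794. Among e arrays it was -0.22 and among x arrays -0.16. Of the 6 genes at an unadjusted p under 0.05, Kcnh2 kept it least often, in 10 of 20 alternatives. Leaving out Ezh2-deficient array 3 gave -0.14 (limma adjusted p = 0.634). With the Y-linked mean as a covariate the Kcnh2 difference was -0.15 (limma unadjusted p = 0.0838).

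The slow delayed rectifier pairs the Kv7.1 pore, encoded by Kcnq1, with MinK, a short protein that spans the membrane once and is encoded by Kcne1. Kcnq1 read 8.90, 8.79, 8.65 and 9.01 in Ezh2-deficient arrays 1 to 4, against 8.99, 9.16, 8.90, 8.75 and 8.88 in wild-type arrays 1 to 5. The groups overlapped over most of their range, with a difference of -0.10 (SE 0.09, 95% interval -0.31 to 0.11, limma adjusted p = 0.733). The lowest value was that of Ezh2-deficient array 3, without which the difference was -0.04. Among e arrays it was -0.125, among x arrays -0.122, and with the Y-linked mean as a covariate -0.057.

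Kcne1 was the one member at an unadjusted p under 0.05 with a higher mean in Ezh2-deficient hearts. It read 7.62, 7.27, 7.12 and 7.14 in Ezh2-deficient arrays 1 to 4, against 7.12, 6.96, 6.90, 7.08 and 6.89 in wild-type arrays 1 to 5. Each Ezh2-deficient heart was at or above the highest wild-type heart, and Ezh2-deficient array 3 equalled wild-type array 1. Equal values were common in the deposited data: 59.9% of all probe sets had the same value on at least 2 arrays. Kcne1 was below the array median on Ezh2-deficient arrays 3 and 4 and on all wild-type arrays. The difference was 0.30 (SE 0.10, 95% interval 0.07 to 0.52, limma adjusted p = 0.342; exact permutation p = 0.0159), a level 1.23-fold that of wild type. Among e arrays it was 0.34 and among x arrays 0.23, and it came to 0.19 when Ezh2-deficient array 1, the highest, was left out. Kcnq1 minus Kcne1 averaged 1.55 ± 0.24 in Ezh2-deficient hearts (SD, n = 4) and 1.95 ± 0.20 in wild-type hearts (SD, n = 5), a difference of -0.40 (exact permutation p = 0.0317, adjusted p = 0.0317 over the 3 pairs). This call too ended without any single array (adjusted exact p of 0.0536 to 0.0893), and it ended after another quantile normalization (adjusted exact p = 0.0556). The pair sets Kcne1, with a higher mean, against a gene with a lower one, and was chosen with earlier results known. Its p-value is therefore no independent evidence. In the mouse heart Kcne1 is known from the newborn ventricle and the adult conduction system. Of 11 conduction system genes, Kcne1 among them, 6 had a higher and 5 a lower mean, 0 passed by limma, and 3 were higher at an unadjusted p under 0.05, against 5.23% of all probe sets. Besides Kcne1 itself these were the transcription factor gene Etv1 (0.30, SE 0.09) and Gjc1, which encodes connexin 45 (0.17, SE 0.06). The pacemaker channel gene Hcn4 had the lowest difference of the list (-0.22, SE 0.13). The part of conduction tissue in the Kcne1 value was not tested.

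**Figure D3:**
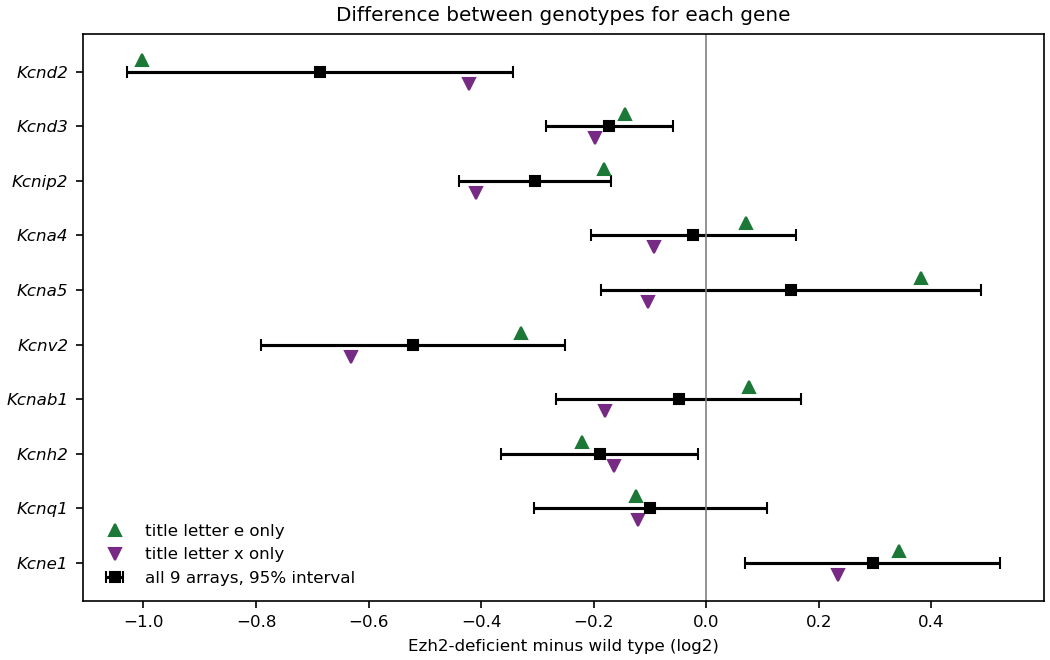
Difference between Ezh2-deficient and wild-type hearts for each gene on the log2 scale (squares, with 95% intervals from limma over all 9 arrays), and the same difference within the arrays of title letter e (upward triangles) and x (downward triangles). The intervals of Kcnd2, Kcnd3, Kcnip2, Kcnv2, Kcnh2 and Kcne1 left out 0 before adjustment, and the differences of Kcna4, Kcna5 and Kcnab1 had opposite signs under the 2 letters.

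The other genes of the same families were set beside the 10. Of 28 measured alpha subunit genes outside the list, 15 had a lower and 13 a higher mean, with a median difference of -0.00053. By limma 0 of them passed, and 0 had an unadjusted p under 0.05, against 10.7% of all probe sets. Of these 28 genes, 20 were below every array median. Kcnd1, the third Kv4 gene, averaged 6.30 ± 0.06 in Ezh2-deficient and 6.38 ± 0.05 in wild-type hearts (SD, n = 4 and 5), a difference of -0.08 (SE 0.04). Kcnh1 differed by 0.09 (SE 0.05) and Kcng4 by 0.12 (SE 0.07).

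Of 11 measured auxiliary subunit genes outside the list, 6 had a lower and 5 a higher mean, with a median of -0.0028. By limma 0 passed, and 2 were higher at an unadjusted p under 0.05, against 5.23% of all probe sets. Both belong to the family of Kcne1: Kcne3 differed by 0.13 (SE 0.05, limma adjusted p = 0.364) and Kcne4 by 0.16 (SE 0.06, adjusted p = 0.365). Kcne2, which can bind ERG and Kv7.1, differed by -0.02 (SE 0.06). Dpp6 and Dpp10, which encode membrane proteins that bind Kv4 channels, differed by -0.0028 (SE 0.04) and -0.03 (SE 0.05). All but Kcne4 of these 11 genes were below every array median.

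Of 11 genes for proteins that anchor channels or move them to the membrane, 6 had a lower and 5 a higher mean, and 0 passed by limma. At an unadjusted p under 0.05 Dlg1, the scaffold protein SAP97, was lower (-0.13, SE 0.05), and Fhl1 (0.67, SE 0.22) and Flna (0.36, SE 0.15) were higher. Of all probe sets 5.45% were lower and 5.23% higher at that p. Other channel classes of the ventricle showed both signs. Inward rectifier and background channel genes had a lower mean for 12 of 17, with 0 passing by limma and a median of -0.06. At an unadjusted p under 0.05, 5 were lower and 1 higher, against 5.45% and 5.23% of all probe sets. Kcnj2, the main strong inward rectifier, differed by -0.39 (SE 0.10, adjusted p = 0.243), and Kcnj5, a subunit of the acetylcholine-activated channel, by -0.54 (SE 0.09, adjusted p = 0.102). Of 14 genes for sodium, calcium, pacemaker and other depolarising currents, 9 had a lower mean. Scn4b, a sodium channel beta subunit, was the only one at an unadjusted p under 0.05 (0.71, SE 0.19, limma adjusted p = 0.239). Of all probe sets 10.7% were at that p in either direction. Cacna1c, the pore of the L-type calcium channel, differed by -0.24 (SE 0.12).

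**Figure D4:**
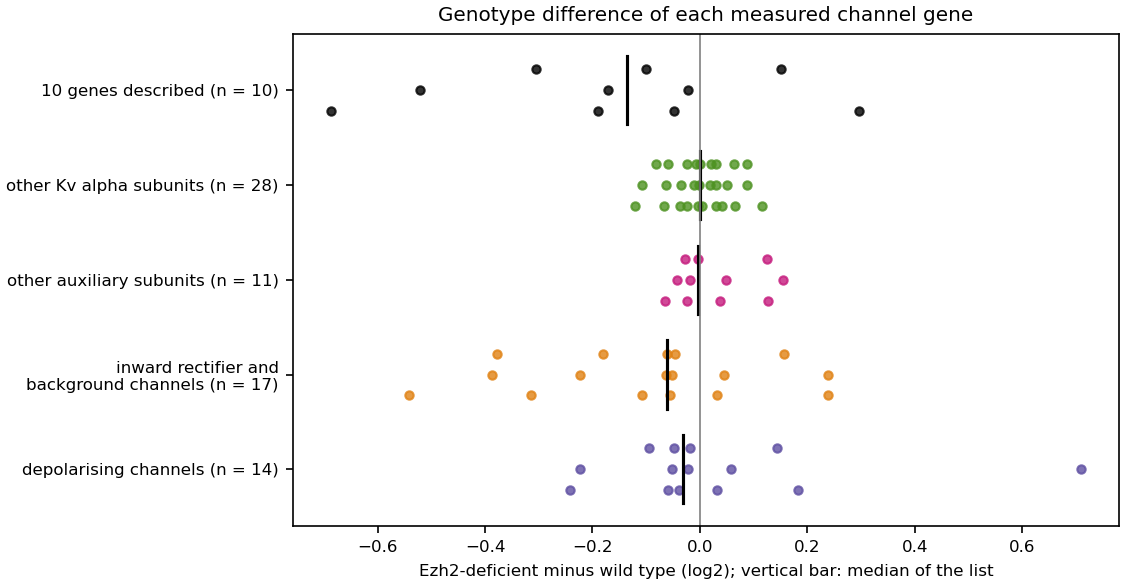
Difference between Ezh2-deficient and wild-type hearts, on the log2 scale, of each measured gene in 5 channel gene lists, with 1 point per gene and a vertical bar at the median of the list. The medians were -0.14 for the 10 genes, -0.00053 for 28 other alpha subunits, -0.0028 for 11 other auxiliary subunits, -0.06 for 17 inward rectifier and background channels and -0.03 for 14 depolarising channels.

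Regulators with known roles in cardiac ion channel expression were read from a list of 21 genes. Of these, 13 had a lower and 8 a higher mean, with a median of -0.04, and 0 passed by limma. Irx5, a homeobox repressor of Kcnd2 in the mouse ventricle, averaged 7.80 ± 0.07 in Ezh2-deficient hearts (SD, n = 4) and 7.71 ± 0.18 in wild-type hearts (SD, n = 5), a difference of 0.10 (SE 0.09, limma adjusted p = 0.724). At an unadjusted p under 0.05 there were 4: Etv1 (0.30) and Tbx20 (0.25) higher, and the thyroid hormone receptor gene Thrb (-0.19) and Hey2 (-0.18), which encodes a ventricular repressor, lower. Of all probe sets 5.23% were higher and 5.45% lower at that p.

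The genes whose pattern was most like that of Kcnd2 over the 9 arrays were Corin (Pearson's r = 0.980), Mylk3 (0.966) and Zfp251 (0.964). Corin encodes the heart protease that cleaves pro-atrial natriuretic peptide and averaged 11.01 in Ezh2-deficient and 11.39 in wild-type hearts. Mylk3, the cardiac myosin light chain kinase, averaged 12.09 in Ezh2-deficient and 12.21 in wild-type hearts. For Kcnip2 they were Klhl23 (0.952), Rpap3 (0.949) and Idh3b (0.942), a subunit gene of mitochondrial isocitrate dehydrogenase. These coefficients were picked as the highest over all genes, on arrays that share their group difference, and are a description.

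Lists of cell type markers were read beside these values. The mean over 15 cardiomyocyte markers ran from 13.27 to 13.46 in Ezh2-deficient arrays and from 13.45 to 13.52 in wild-type arrays, with 14 of 15 genes lower in mean, a median difference of -0.06, and 0 of 15 below every array median. Fibroblast markers were higher in mean for 15 of 15, with list means of 10.80 to 11.06 in Ezh2-deficient and 10.04 to 10.68 in wild-type arrays and a median difference of 0.52. Endothelial markers were higher for 15 of 15 (10.40 to 10.50 in Ezh2-deficient, 9.93 to 10.45 in wild-type arrays, median 0.17), and macrophage and leukocyte markers for 11 of 12 (8.61 to 8.94 in Ezh2-deficient, 8.28 to 8.75 in wild-type arrays, median 0.18). Smooth muscle and pericyte markers were higher for 9 of 12 (9.78 to 10.03 in Ezh2-deficient, 9.60 to 9.91 in wild-type arrays, median 0.09). Neuronal and glial markers were higher for 7 of 12 (7.07 to 7.14 in Ezh2-deficient, 6.996 to 7.04 in wild-type arrays, median 0.06), and 5 of these 12 were below every array median. Atrial markers varied within both genotypes (8.54 to 9.83 in Ezh2-deficient, 8.11 to 9.48 in wild-type arrays, 5 of 8 higher, median 0.06). Erythrocyte markers were higher for 5 of 5 (7.68 to 8.99 in Ezh2-deficient, 7.36 to 7.95 in wild-type arrays, median 0.29). The value of 8.99 was that of Ezh2-deficient array 3, and the other Ezh2-deficient arrays, at 7.68 to 7.75, lay inside the wild-type range. By limma 0 genes of these lists passed. At an unadjusted p under 0.05, 12 fibroblast, 3 endothelial, 1 neuronal and 1 atrial marker were higher, and 1 cardiomyocyte and 2 smooth muscle markers were lower. Of all probe sets 5.23% were higher and 5.45% lower at that p. The 2 smooth muscle markers were Abcc9 and Myocd, and Abcc9 also stands in the list of inward rectifier and background channel genes. The part of cell composition in the channel gene differences was not tested.

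**Figure D5:**
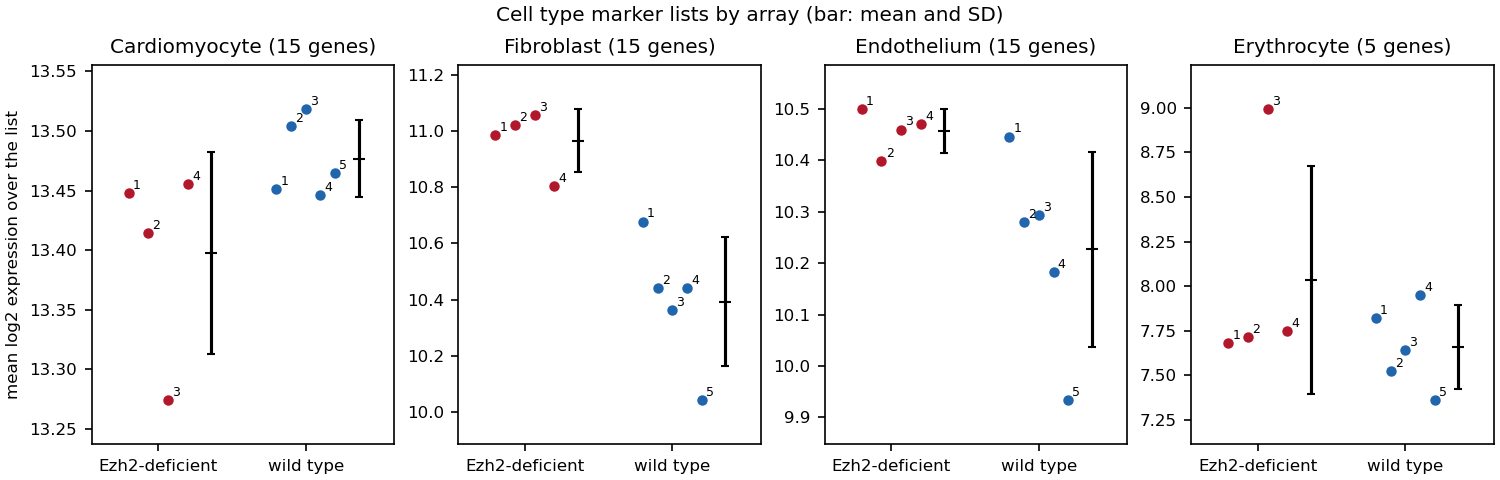
Mean log2 expression over the markers of 4 cell types on each Ezh2-deficient (red, left) and wild-type array (blue, right), with the mean and SD beside the points and a vertical scale for each panel. Fibroblast means lay at 10.80 to 11.06 in Ezh2-deficient and 10.04 to 10.68 in wild-type arrays, and the erythrocyte mean of Ezh2-deficient array 3 was 8.99.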

How the data were processed

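For every array the authors deposited 1 log2 value per probe set. Per the submitters' processing notes, RMA and Affymetrix Power Tools were used, with versions not given in the sources used here. RMA puts the arrays on a common distribution, so a global shift would not show. The log2 scale was read from the range of the values and the method. The labels name 4 and 5 mice, and each array was taken as 1 animal; where animals shared a litter or preparation is not recorded. Replicates were numbered in sample order and pair nothing. Names came from GEO's annotation of the platform, with symbols updated through RefSeq gene identifiers (21689 of 21780 single-symbol probe sets matched), and each gene was read at its single-symbol probe set with the highest mean. Of 28815 probe sets, 1605 had several symbols and 5430 none.

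All probe sets were tested together with limma 3.58.1 (lmFit and eBayes, R 4.3.3), genotype as the only term, two-sided, with Benjamini-Hochberg adjustment over all of them and a threshold of 0.05. The fit was tested on simulated data with independent normal errors, which checks the code and not the sex, letter or tissue differences among these arrays. Single values were tested by exact permutation over 126 assignments. The number of arrays limits the precision: standard errors of the 10 genes were 0.05 to 0.15. The 10 genes, the further lists, the pairs and the tests were chosen with earlier results of these arrays known. Named were the 10 genes, Ezh2, members of the further lists by smallest p (up to 4) or by a fixed set, and the 3 genes most like Kcnd2 and Kcnip2 in Pearson's r. Alternatives were another quantile normalization, median centring, leaving out dim probe sets, the title letter with or without its prime as a block, a Y-linked covariate, either letter alone, leaving out arrays, and array weights.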

Additional observations from a re-analysis of the deposited data

Results flagged for a closer look

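Of 20 sets of values, 10 genes in 2 genotypes, 2 held an array whose gap to its nearest neighbour, as a share of the group's range, was past Dixon's critical value at the 95% level, which chance passes in about 1 of 20 groups. The shares were 0.834 and 0.893. Kcnd2 in wild-type array 2 was 9.63, against 8.96 to 9.07 in wild-type arrays 1, 3, 4 and 5, and leaving it out gave a Kcnd2 difference of -0.56 (limma adjusted p = 0.234). Kcnv2 in Ezh2-deficient array 2 was 6.86, against 6.65 to 6.67 in the other Ezh2-deficient arrays, and without it the Kcnv2 difference was -0.57.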

How the results depend on the processing

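Under all 20 alternatives 0 of the genes passed limma's adjusted threshold; the lowest adjusted p were 0.0838 for Kcnip2, 0.0869 for Kcnv2 and 0.0885 for Kcnd2. The number at an unadjusted p under 0.05, a count added after seeing the data, was 3 among e arrays and 4 to 6 elsewhere. The signs of Kcnd2, Kcnd3, Kcnip2, Kcnv2, Kcnh2, Kcnq1 and Kcne1 held in every alternative that gave them a value; Kcna4, Kcnv2, Kcnab1 and Kcne1 gave none with dim probe sets left out. Kcna4 was 0.071 among e arrays, 0.0225 without wild-type arrays 4 and 5, and -0.0648 to 0.0418 with 1 array left out. Kcna5 was -0.10 among x arrays and 0 to 0.30 with 1 array left out. Kcnab1 was 0.0755 among e arrays, 0.020 with array weights, and -0.135 to 0.0569 with 1 array left out. The cause of these sign changes was not tested. The median over the genes ran from -0.18 to -0.10. Probe sets past the adjusted threshold numbered 10, but 17 with median centring, 17 with dim probe sets left out (fewer tested), 17 with the letter as a block, 27 with letter and prime, 37 with array weights, 3 with the Y-linked covariate, 5 without wild-type arrays 4 and 5, and 3 to 15 with 1 array left out; with e or x arrays alone limma called 0, with 2183 (e) and 3132 (x) at an unadjusted p under 0.05. The pairs lost their call in smaller sets of arrays. Kcnd2 minus Kcnd3 differed by -0.86 (e arrays), -0.22 (x arrays), -0.57 (wild-type arrays 4 and 5 left out) and -0.65 to -0.41 with 1 array left out. Kcnd2 minus Kcna4 differed by -1.07 (e arrays), -0.33 (x arrays), -0.79 (wild-type arrays 4 and 5 left out) and -0.77 to -0.50 with 1 array left out. Kcnq1 minus Kcne1 differed by -0.47 (e arrays), -0.36 (x arrays), -0.47 (wild-type arrays 4 and 5 left out), -0.50 to -0.31 with 1 array left out, and -0.38 after another quantile normalization (adjusted exact p = 0.0556). For 1 letter alone the adjusted exact p were 0.333 for e and 0.30 for x, and those designs cannot pass 0.05. No paired analysis was possible because no title number occurs under the same letter in both genotypes. The titles of wild-type arrays 3 and 4 share a number and differ by a prime, whose meaning the labels do not state. Among x arrays, those with a prime had Y-linked means of 9.24 to 9.38, and those without had 5.47 and 5.51. Letter and prime as a block therefore cannot be told apart from these levels among x arrays. Each gene has a single probe set, so averaging probe sets moved nothing.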

Other observations

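The arrays held further genes that ran close to single channel genes, named here after their values were seen. Each had the highest coefficient of all genes with its channel gene, so a high r follows from the choice and is a description. Over the 9 arrays Kcna5 followed Errfi1, which encodes a feedback inhibitor of EGF receptor signalling (Pearson's r = 0.966), and Errfi1 averaged 10.50 in Ezh2-deficient and 10.02 in wild-type hearts. Kcne1 followed Inhba, which encodes the activin beta A chain (r = 0.985), and Inhba averaged 7.26 in Ezh2-deficient and 6.96 in wild-type hearts. Ezh2-deficient array 1 held the highest value of both Kcna5 and Kcne1, and Ezh2-deficient array 3, with the highest erythrocyte and the lowest cardiomyocyte mean, held the lowest value of Kcna5, Kcnh2 and Kcnq1.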
